A study of Mus musculus with 7 samples.

Results

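The Notch pathway genes described here are 10 ligands, effectors and receptors, *Hes1*, *Hes5*, *Hes6*, *Hes7*, *Hey1*, *Hey2*, *Dll1*, *Dll3*, *Jag1* and *Notch1*, out of 21475 named genes on the array. They were taken by gene name, and every probe carrying that name was read, 13 in all. The tissue was posterior second heart field (pSHF), the cardiac progenitor mesoderm that lies behind the heart tube, microdissected from mouse embryos at E9.5 on a mixed background (C56B/6 and CD-1, as the labels spell it). Its RNA was pooled over embryos and measured on single-colour Agilent arrays, from 4 *Shh* -/- pools (numbered 1 to 4) and 3 *Shh* +/+ pools (numbered 1, 3 and 4). *Shh* -/- embryos carry a null allele in every tissue and came from crosses of heterozygous, superovulated parents, so an effect within the pSHF and an effect of other *Shh*-deficient tissues on it cannot be told apart. Foregut stayed on the dissected piece. Heart, neural tube and the more dorsal mesenchyme were cut away. Pools of the same number shared a slide, always with the mutant pool in the first position, so that effects of position cannot be told apart from those of genotype. No wild-type pool lay beside mutant pool 2, and its label warns of a possible leak during hybridization.

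Notch receptors bind Delta-like and Jagged ligands on neighbouring cells, and cleavage then frees an intracellular domain that joins the DNA-binding protein RBPJ in the nucleus. The best known genes switched on by this complex are the Hes and Hey families of basic helix-loop-helix repressors. In the embryo, *Hes5*, *Dll1* and *Dll3* are known from neural progenitors and from somite formation, and *Hey1*, *Hey2* and *Jag1* from arteries, endocardium and heart chambers. The 2 sets are called neural and vascular/cardiac below, from that background and not from any sorting of cells in these pools.

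The members and the 2 sets were selected on these same signals, with the mutant against wild-type contrast in view. Their changes are therefore given as descriptions, with no test. Signals are log2 intensities after background correction and variance stabilizing normalization (VSN), and a change is the mean of the mutant pools minus the mean of the wild-type pools. In bulk RNA, fewer cells of a type and less RNA per cell cannot be told apart. Of the 13 probes, 11 probes for 9 genes stood well above background on all arrays of either or both genotypes and entered the fit across 23127 probes. *Hes7* and the second *Jag1* probe did not. Among the 11, 7 were lower and 4 higher in the mutants, where 44.5% of all tested probes were lower. The direction of that majority depended on the scaling and background correction. With the values used here 55.5% of tested probes were higher, but 46.4% were with quantile normalization and 42.4% with local background. The authors' values set to the same median per array gave 65.0%. No member was past an adjusted p of 0.05 (limma, Benjamini-Hochberg over all 23127 probes), where 0.553% of all probes were, and 4 were under an unadjusted p of 0.05, where 7.95% of all probes were. Mutant and wild-type pools did not overlap for 4 member probes that were lower (*Hes5*, *Dll3*, *Dll1* and *Jag1*) and for 1 that was higher (*Hey2*). Over all probes with a value on every array, 3.56% were lower without overlap and 4.78% were higher without overlap. Since the contrast itself chose the genes, nothing follows from that comparison about Notch signaling.

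**Figure D1:**
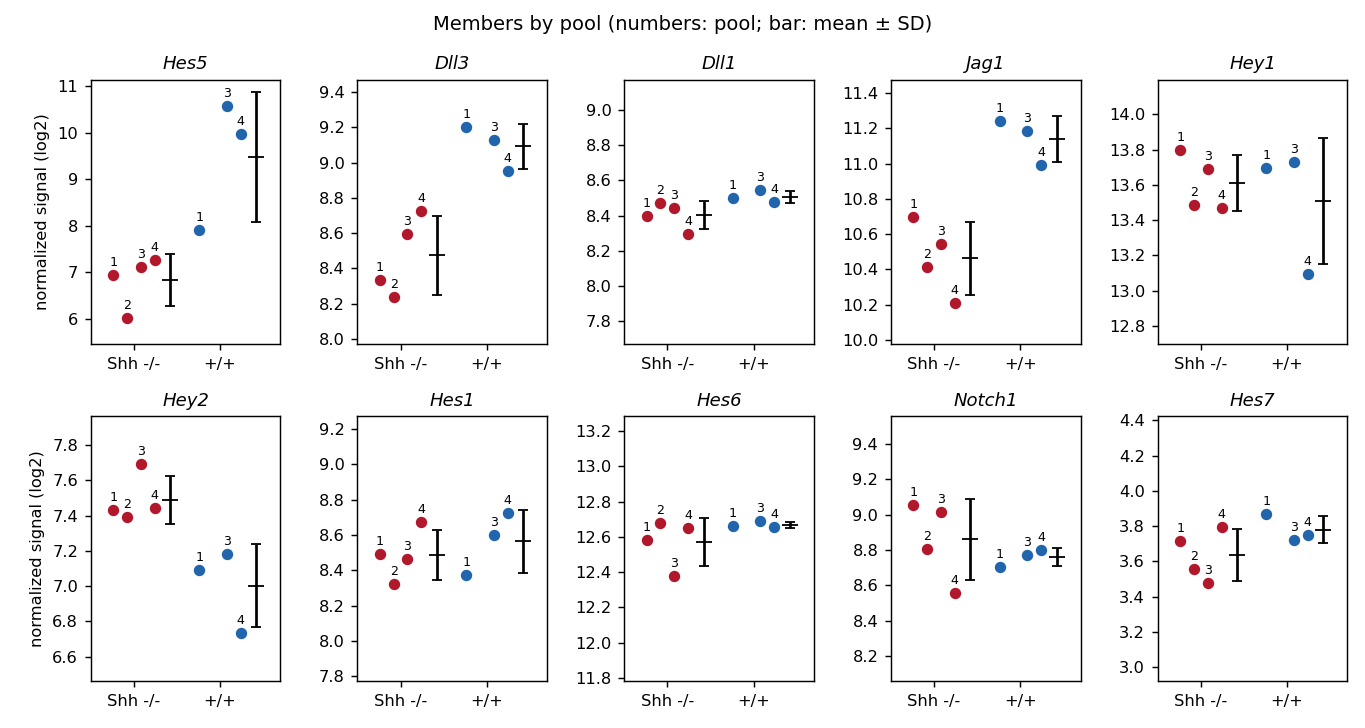
Normalized signal (log2, vertical axis) of each member's brightest probe in every pool, with *Shh* -/- pools in red, +/+ pools in blue, the pool number above each point and the mean ± SD as a bar. The axes differ between panels and each spans at least 1.5 log2 units; *Hes5* in wild-type pool 1, at 7.91, lies far below wild-type pools 3 and 4.

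*Hes5*, an effector of Notch that keeps neural progenitors undifferentiated, showed the lowest value of any member against wild type. It was read by a probe at chr4:154336347-154336406 (mm9, plus strand). Mutant pools 1, 2, 3 and 4 gave 6.93, 6.02, 7.11 and 7.26, while wild-type pools 1, 3 and 4 gave 7.91, 10.57 and 9.98. The highest mutant pool was 0.65 under the lowest wild-type pool. The group means were 6.83 ± 0.56 (SD, n = 4) and 9.49 ± 1.40 (SD, n = 3), a log2 change of −2.66 (SE 0.57), or 15.8% of the wild-type signal. Only 0.013% of all tested probes had a change as low or lower.

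The wild-type pools disagreed over *Hes5* more than over nearly any other gene. Their SD of 1.40 stood at the 99.95th percentile of the 23127 tested probes, whose median wild-type SD was 0.16. The SD of 0.56 among the mutant pools was at the 95.4th percentile, against a median of 0.18. On the slide shared by pools 1 the mutant was lower by a log2 difference of −0.97, on that of pools 3 by −3.47 and on that of pools 4 by −2.72. Without wild-type pool 1, the wild-type pool nearest the mutants, the change was −3.45, and with arrays weighted by quality it was −3.46. The probe was past the adjusted threshold in both fits, where 0.0606% and 2.37% of all probes were. Since the contrast chose the gene and the first fit drops the nearest wild-type pool, nothing follows from these calls. Leaving out wild-type pool 3 gave the smallest change, −2.11. The sign was the same under all 19 other settings.

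Markers of the neural tube, which the dissection removed, were read on the same arrays. Of 12 neural tube progenitor genes 10 were tested, 8 lower and 2 higher, with a median change of −0.35 against 0.03 over all 14894 genes tested. Of all tested genes, 40.4% were lower in the mutants. *Zic1*, a zinc finger gene of the dorsal neural tube and somites, fell past the threshold (log2 change −1.92). It was the only one of the 10 called, where 0.389% of all genes were called lower. At an unadjusted p under 0.05 (limma) there were 4 of the 10, against 7.95% of all probes. Beyond *Zic1*, *Neurog2* was at −1.41 and *Nkx6-1* at −0.85, neither past the threshold. Summed normalized signals, taken off the log2 scale, covered the 10 and the untested *Sox1*. They ran from 13814 to 18381 in mutant pools and from 18182 to 19323 in wild-type pools. Most of each sum was *Nes*, whose change was 0.05. *Sox1*, a defining neural plate gene, was well above background on 1 of 4 mutant and 0 of 3 wild-type arrays. The mean of the list was 8.68, 8.62 and 8.58 in wild-type pools 1, 3 and 4, and 8.44, 7.83, 7.93 and 8.15 in mutant pools 1 to 4. *Neurog2*, a proneural gene, was high (8.38) in mutant pool 1 and between 3.66 and 5.01 in the other mutant pools. Early neuron genes had a median of −0.04 (7 of 8 tested, 4 lower, none called, 1 under an unadjusted p of 0.05), with *Neurod1* at −0.57, *Elavl3* at −0.37 and *Stmn2* at 0.37. *Neurod1* was dim, well above background on 2 of 4 mutant arrays. The summed signal of the early neuron genes, with the untested *Neurod4* included, was 3214 to 5593 in mutants and 3900 to 4422 in wild type. The part of neural tissue in the *Hes5* difference was not tested.

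The RefSeq promoter window of *Hes5* (250 bases before to 50 after the start site, GRCm38.p6) holds the RBPJ core TGGGAA in both orientations. The 30 bases around each match are shown, since *Hes5* is the member with the largest difference and RBPJ is the DNA-binding partner of Notch. Capitals mark the core or its reverse complement TTCCCA. The names give the position of the first base of the match, counted from 0 at the start site, and the windows are chr4:154960685-154960714 and chr4:154960829-154960858 (plus strand).
*Hes5* at −226: agggcgagcgcgTTCCCAcagcccggacat
*Hes5* at −82: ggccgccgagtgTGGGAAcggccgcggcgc
Searched on both strands, this core is found in 25.6% of the 32851 RefSeq promoter windows. It is in those of 3 of the 8 members that have a window (*Hes5*, *Hes7* and *Hey2*). Members were counted by gene, and the 8 genes hold 10 windows, so the shares are in unlike units. The Gli core TGGGTGG, searched on both strands in the same windows, is in 9.3% of all windows and in those of 0 of the 8 members. A match describes the letters of the window and not occupancy.

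*Dll3*, a divergent Delta-like protein that acts within the cell, was read at chr7:29078763-29078822 (mm9, minus strand). It gave 8.34, 8.24, 8.59 and 8.73 in the mutants (pools 1 to 4) against 9.20, 9.13 and 8.95 in the wild type (pools 1, 3 and 4). The pools did not overlap, with 0.22 between the nearest of them. The change was −0.62 (SE 0.15), from 9.09 ± 0.13 (SD, n = 3) to 8.47 ± 0.23 (SD, n = 4), which leaves 65.1% of the wild-type signal. The difference differed in size among slides, at −0.87 for pools 1, −0.53 for pools 3 and −0.22 for pools 4. That order is not the order of *Hes5*, whose smallest difference was on the slide of pools 1.

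*Dll1*, the Delta ligand of neural and presomitic cells, was spotted 10 times per array at chr17:15504623-15504682 (mm9, minus strand). Its spread among spots within an array is therefore known, but not the error between arrays. The SD among the 10 spots of an array was 0.02 to 0.06. Mutant pools gave 8.40, 8.47, 8.45 and 8.30, and wild-type pools 8.50, 8.55 and 8.48. All mutant pools were lower, but the nearest mutant and wild-type pools were only 0.0043 apart, less than the SD among single spots. Its change of −0.10 (SE 0.10) left 93.1% of the wild-type signal. Both within the mutants and within the wild type, *Dll1* was among the steadier probes, at the 9.19th and 3.74th percentiles of SD. The 3 neural members thus differed widely in size, with changes of −2.66, −0.62 and −0.10.

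*Jag1*, the Jagged ligand needed for arterial, endocardial and outflow tract development, was read by a probe at chr2:136907433-136907492 (mm9, minus strand). The mutant pools gave 10.69, 10.41, 10.54 and 10.21, and the wild-type pools 11.24, 11.19 and 10.99. No mutant pool reached the lowest wild-type pool, and the gap was 0.30. The change was −0.68 (SE 0.14), from 11.14 ± 0.13 (SD, n = 3) to 10.46 ± 0.21 (SD, n = 4), or 62.6% of the wild-type signal. Within slides the differences were −0.55, −0.64 and −0.79. With array weights it passed the adjusted threshold, as did 2.37% of all probes, against 0.553% without weights. Since the contrast chose the gene, nothing follows from that call. Its second probe, at chr2:136908942-136909001, was well above background on 0 of 4 mutant and 1 of 3 wild-type arrays. Placed in the vascular/cardiac set, *Jag1* was lower in the mutants, like *Hes5* and *Dll3* and unlike *Hey2*.

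*Hey2*, a repressor of the ventricular chamber and of arteries, was the only member higher in every mutant pool than in every wild-type pool. The probe lies at chr10:30552729-30552788 (mm9, minus strand). It gave 7.43, 7.39, 7.69 and 7.44 in the mutants and 7.09, 7.18 and 6.73 in the wild type, with a gap of 0.21. Its change was 0.49 (SE 0.14), from 7.003 ± 0.24 (SD, n = 3) to 7.49 ± 0.14 (SD, n = 4), and the mutants held 140.1% of the wild-type signal. The 3 slides gave 0.34, 0.51 and 0.71. In the authors' own normalized values, where the median of all probes moved to −0.54, the value for *Hey2* was −0.07, still above that median. With each of the authors' arrays set to the same median it was 0.54.

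The promoter window of *Hey2* (minus strand, written in the direction of the gene) also holds 2 matches to the RBPJ core, at chr10:30842973-30843002 and, at the start site itself, chr10:30842769-30842798 (GRCm38.p6). They are shown because *Hey2* and *Hes5*, which lay on opposite sides of 0, both have the core in either orientation.
*Hey2* at −207: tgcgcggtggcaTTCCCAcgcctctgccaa
*Hey2* at −3: tgggctgcagcgTGGGAAagaacctccagg
The letters of the core do not separate the member that was lower from the member that was higher.

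*Hey1*, the Hey family gene of atria, atrioventricular boundary and arteries, overlapped between genotypes. It was read at chr3:8663432-8663491 (mm9, minus strand), with signals of 13.80, 13.49, 13.69 and 13.47 in mutants and 13.70, 13.73 and 13.09 in wild type. Wild-type pool 4 was the lowest of the 7 and set the sign of the change, 0.11 (SE 0.18). Without that pool the change was −0.10 and with array weights −0.01. In the authors' values it was −0.38, above their median of −0.54 over all probes, and 0.23 with each of their arrays set to the same median. The slides gave 0.10, −0.04 and 0.37.

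Heart muscle was to be removed in the dissection, but its genes were bright and varied with the pool. The mean over 10 cardiomyocyte genes was 13.35 in wild-type pool 4 against 13.87 and 14.02 in wild-type pools 1 and 3. Among mutants it was 13.26 in pool 4 against 14.39, 14.00 and 14.06 in pools 1, 2 and 3. Pool 4 was also the lowest pool of its genotype for *Hey1*. In *Hey2* and *Jag1* the lowest wild-type pool was again pool 4, and so was the lowest mutant pool for *Jag1*, while for *Hey2* mutant pool 2 was lowest. Of the 10 cardiomyocyte genes, 9 were higher and 1 lower in the mutants (median change 0.24, none called and none under an unadjusted p of 0.05), led by *Tnni1* (0.37), *Myl4* (0.33) and *Myh7* (0.31). Their summed signal was 274829 to 410156 in mutants and 222294 to 333191 in wild type. Endothelial genes differed less, with 11 of 12 higher, a median of 0.06 and no call (1 under an unadjusted p of 0.05). With this normalization most genes were higher over the whole array too, where 40.4% of all tested genes were lower. *Tie1* (0.36), *Tek* (0.29) and *Eng* (0.23) had the largest changes, and the summed signal of the 12 was 46628 to 57389 in mutants and 48326 to 50987 in wild type. Of 6 arterial and endocardial genes, 3 were higher and 3 lower (median 0.01, none called, 0 under an unadjusted p of 0.05), with *Nfatc1* at 0.47, *Nrp1* at 0.31 and *Npr3* at −0.25. Their summed signal was 12311 to 14567 in mutants and 11641 to 14595 in wild type. Whether heart muscle or vessels carried over with the tissue account for any difference in *Hey1*, *Hey2* or *Jag1* was not tested.

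**Figure D2:**
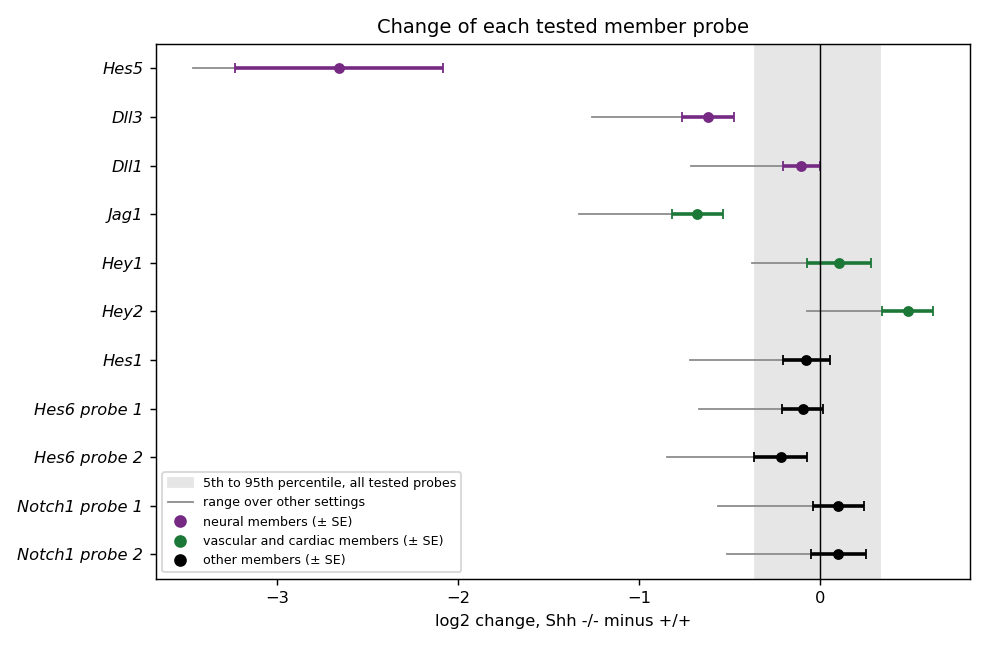
Log2 change (*Shh* -/- minus +/+, horizontal axis) of the 11 tested member probes, with the standard error as a thick bar, neural members in purple, vascular/cardiac members in green and others in black. Thin grey lines give the range over the other settings and the shaded band the 5th to 95th percentile of all tested probes (−0.36 to 0.33); the bars of *Hes5*, *Dll3*, *Jag1* and *Hey2* lie outside that band.

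Set side by side, the neural members had a median change of −0.62 and the vascular/cardiac members one of 0.11, against 0.03 over all genes. For the latter the mean differed in sign from the median, since *Jag1* outweighs the others: the mean over the 3 genes was 10.52 ± 0.14 (SD, n = 4) in mutants and 10.55 ± 0.24 (SD, n = 3) in wild type, a difference of −0.03. The neural mean was 7.90 ± 0.23 (SD, n = 4) against 9.03 ± 0.45 (SD, n = 3), a difference of −1.13, and −0.65, −1.37 and −1.04 within the slides of pools 1, 3 and 4. Subtracting one mean from the other within each array gave −2.85 to −2.28 in mutants and −2.14 to −1.14 in wild type, without overlap and with a difference of −1.10. Most of that contrast is *Hes5*. Among the other 5 genes, *Jag1* of the vascular/cardiac set was lower by as much as *Dll3* of the neural set. *Dll1* and *Hey1* lay near 0, and *Hey2* was higher, with a change of 0.49. The split into sets therefore did not coincide with the split into lower and higher genes.

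**Figure D3:**
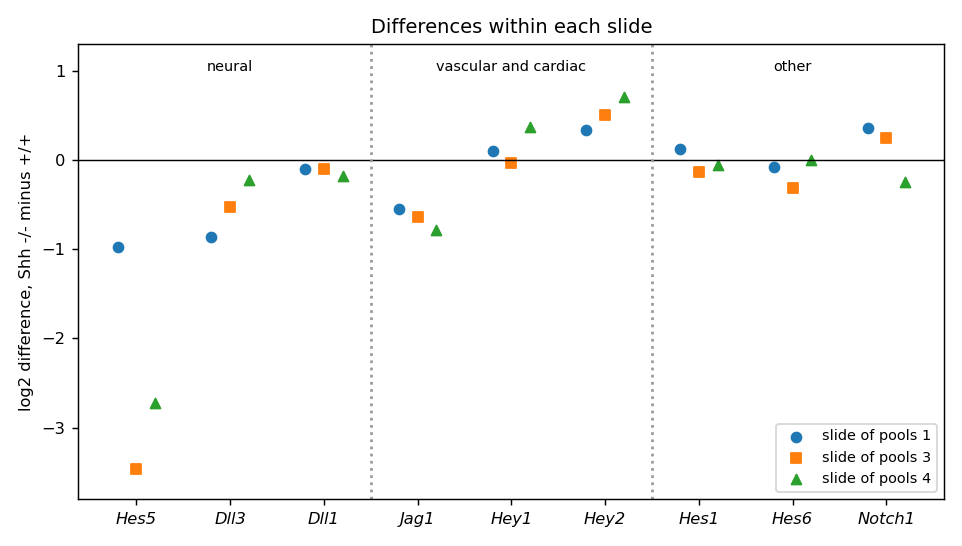
Log2 difference (*Shh* -/- minus +/+, vertical axis) between the mutant and wild-type pool on each of the 3 shared slides, for the brightest probe of each tested member, grouped as neural, vascular/cardiac and other. All 3 slides lie under 0 for *Hes5*, *Dll3*, *Dll1* and *Jag1* and above 0 for *Hey2*, and *Hes5* spans −3.47 to −0.97.

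The other effectors did not separate the genotypes. *Hes1*, the Hes gene used most widely across tissues, was read by a probe that crosses an exon junction between 30065983 and 30066278 of chromosome 16 (mm9, plus strand). It gave 8.49, 8.32, 8.46 and 8.67 in mutants and 8.37, 8.60 and 8.72 in wild type, which overlap, with a change of −0.08 (SE 0.13) that turned to 0.0036 without wild-type pool 4. *Hes6*, which counteracts *Hes1* and promotes differentiation, has 2 probes. Its brighter probe, at chr1:93308264-93308323 (mm9, minus strand), lay between 12.38 and 12.68 in mutants and between 12.65 and 12.69 in wild type, with a change of −0.10 (SE 0.11). The dimmer one, at chr1:93309308-93309367, gave −0.22 (SE 0.15) with overlap. The wild-type SD of the brighter probe, 0.02, was at the 1.03rd percentile of all tested probes, in contrast to that of *Hes5*.

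*Hes7*, the oscillating repressor of the presomitic segmentation clock, was not well above background on any of the 7 arrays. The probe sequences of *Hes6* (the dimmer probe) and *Hes7* are shown because both lie in the conserved basic helix-loop-helix coding part, where a probe might pick up a relative. Capitals mark the 31 of 54 aligned bases that they share, 57.4%, and the longest run common to both is 6 bases. The *Hes7* probe lies at chr11:68935657-68935716 (mm9, plus strand).
*Hes6*: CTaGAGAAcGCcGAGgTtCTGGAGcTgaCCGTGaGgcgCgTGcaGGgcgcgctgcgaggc
*Hes7*: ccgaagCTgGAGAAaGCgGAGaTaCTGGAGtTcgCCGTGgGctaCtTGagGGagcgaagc
The *Hes6* probe was well above background on all 7 arrays while the *Hes7* probe was so on 0 of 7. Among other genes of the presomitic mesoderm and somite, 6 of 10 were tested and 6 of 6 were lower (median −0.32). *Pax1*, a sclerotome gene, fell past the threshold (−3.01), while *Meox1* was at −1.10 and *Tcf15* at −0.45. *Pax1* was the only one of the 6 called, where 0.389% of all genes were called lower. At an unadjusted p under 0.05 (limma) there were 2 of the 6, against 7.95% of all probes. The summed signal of the 6 and the untested *Mesp1*, *Msgn1* and *Myf5* was 2580 to 4165 in mutants and 3984 to 7349 in wild type. The clock-related *Mesp2* was at −0.03, and *Tbx6* at −0.08. *Dll1* and *Dll3* also belong to presomitic mesoderm, and the part of such tissue in their values was not tested.

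The receptor *Notch1* was read by 2 adjacent probes, at chr2:26314772-26314830 and chr2:26314830-26314889 (mm9, minus strand). The first, spotted 10 times per array with an SD among spots of 0.07 to 0.14, gave 9.06, 8.81, 9.02 and 8.56 in mutants and 8.70, 8.77 and 8.80 in wild type. Mutant pool 4 lay under all wild-type pools and mutant pools 1, 2 and 3 above them. The changes of the probes were 0.10 (SE 0.14) and 0.10 (SE 0.15), and both turned just under 0 with local background (−0.0076 and −0.00016). In the authors' values they were −0.56 and −0.51, near the median of all probes, and 0.05 and 0.09 once each array was set to the same median. In both probes the mutant pools were more spread than the wild-type pools, with SDs of 0.23 and 0.26 against 0.05 and 0.04.

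The remaining core genes of the pathway were read from a textbook list of 46, by the brightest probe of each. Tested were 43, of which 23 were lower and 20 higher, with a median change of −0.02 against 0.03 over all genes. Of all tested genes, 40.4% were lower. In limma's fit 0 of the 43 were called lower, against 0.389% of all genes, and 0 were called higher, against 0.389% of all genes. At an unadjusted p under 0.05 there were 7, against 7.95% of all probes. Array weights called 2, *Lfng* (−0.66) and *Nrarp* (−0.47), and 2.37% of all probes. The genotypes did not overlap in 8, of which 6 were lower and 2 higher, where 3.56% and 4.78% of all probes were.

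By role, the glycosyltransferases that modify Notch receptors were all lower, 4 of 4, with a median of −0.35. The smallest unadjusted p of the 43 genes was that of *Lfng*, the Fringe gene that tunes receptors toward Delta ligands. It gave 4.74, 4.90, 5.07 and 4.67 in mutants and 5.30, 5.54 and 5.56 in wild type, with a change of −0.62 (SE 0.13, limma's adjusted p = 0.102). Its signal was dim, well above background on 3 of the 4 mutant arrays. *Rfng* was at −0.54 (limma's adjusted p = 0.362), with a difference of −0.06 on the slide of pools 3. It was also dim, well above background on 3 of the 4 mutant arrays. *Mfng* was at −0.16 and *Pofut1* at −0.09, and both overlapped between genotypes.

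Among the inhibitors and turnover genes, 7 of 9 were lower (median −0.10). *Nrarp*, a feedback inhibitor that is itself a Notch target, gave 7.73, 7.55, 7.77 and 7.72 in mutants and 8.09, 8.20 and 7.99 in wild type, without overlap, with a change of −0.40 (SE 0.11, limma's adjusted p = 0.222). *Dtx1*, the Deltex gene, gave 8.31, 8.50, 8.08 and 8.50 against 8.996, 8.77 and 8.70, with a change of −0.47 (SE 0.14, limma's adjusted p = 0.286). The lower direction of *Nrarp* and *Dtx1* was shared with *Hes5* and not with *Hey2*. Of the other effectors, *Hes1* was at −0.08, *Heyl* at 0.05 and *Hes2* at 0.01. Array weights called *Nrarp*, and *Dtx1* was called under no setting.

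The 4 ligands outside the member list went both ways. *Dll4*, the arterial Delta ligand, was at −0.85 (limma's adjusted p = 0.438), with overlap between genotypes, and at −0.51 without wild-type pool 4. *Jag2* was at −0.32 (limma's adjusted p = 0.486) and *Dner* at 0.10. *Dlk1*, a non-canonical ligand, had the smallest unadjusted p among the higher genes, with 16.62, 16.61, 16.45 and 16.98 in mutants and 16.26, 16.33 and 16.34 in wild type (change 0.35, SE 0.14, limma's adjusted p = 0.505). The next in that direction were *Psen2*, a catalytic subunit of gamma-secretase, at 0.23 (0.12 without wild-type pool 4) and the coactivator *Maml2* at 0.22 (0.12 without wild-type pool 1), and both overlapped between genotypes.

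Receptors, cleavage enzymes and nuclear partners lay closer to 0. The 3 receptors ran from −0.13 (*Notch4*) to 0.21 (*Notch2*), and the 9 tested cleavage genes had a median of 0.11. Of the nuclear complex, *Rbpj* was at −0.20 and the 4 tested genes had a median of 0.05, and the 6 corepressors had a median of −0.01. Ligand endocytosis genes had a median of −0.02 (2 genes), and *Heyl* and *Hes2* were at 0.05 and 0.01, while *Hes3* was near background in both genotypes.

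**Figure D4:**
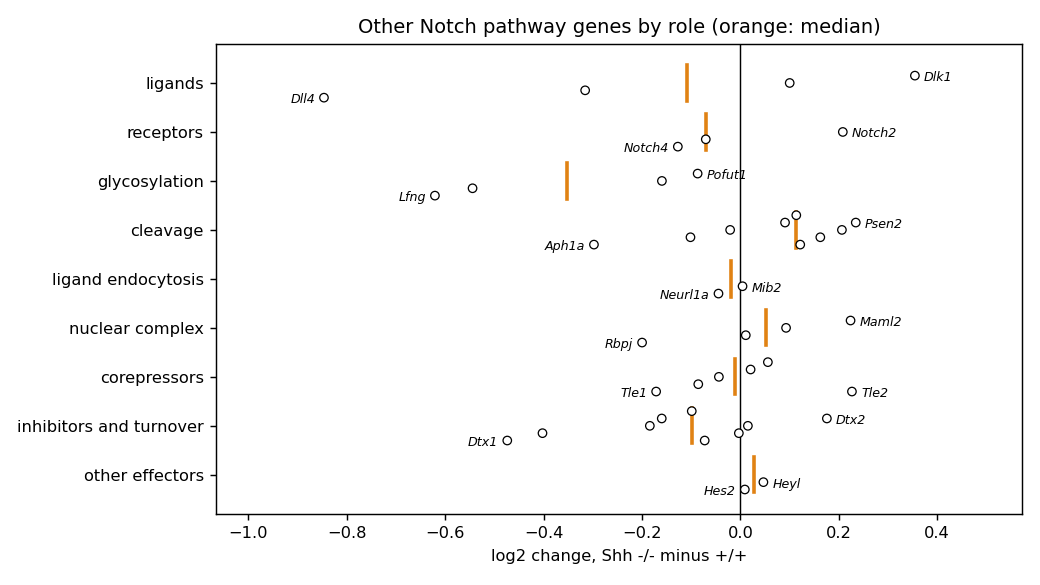
Log2 change (*Shh* -/- minus +/+, horizontal axis) of the 43 tested Notch pathway genes outside the member list, 1 circle per gene by its brightest probe, in rows by role, with the median of each row in orange and the lowest and highest gene named. No gene passed an adjusted p of 0.05; the 4 glycosylation genes all lie under 0.

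The genes most like the neural mean over the 7 arrays, by Pearson's r among 14829 genes, were *Gbx2* (0.98), *Gdnf* (0.97), *Foxi2* (0.97), *B230215L15Rik* (0.95) and *Tmem198* (0.95). Their changes were −0.83, −0.97, −1.47, −0.83 and −0.38. On deviations from the genotype means they were *Ipo7* (0.99), *4932417I16Rik* (0.99), *Gde1* (0.98), *Usp29* (0.98) and *Fdft1* (0.97), none of which was in the first list. For the vascular/cardiac mean they were *2210010C17Rik* (0.99), *Nt5dc3* (0.98), *Myo6* (0.98), *Zfp280b* (0.98) and *Bves* (0.97), and on deviations *Dhcr7*, *Myo6*, *Hs6st1*, *Bves* and *2210010C17Rik* (all 0.99). Both vascular/cardiac lists hold *Myo6*, *2210010C17Rik* and *Bves*, a membrane protein gene of heart muscle. With 7 arrays, many of 14829 genes reach a high r, the arrays share slides and normalization, and the neural mean is mostly *Hes5*.

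As a check of the labels, *Shh* was lower in every mutant pool than in every wild-type pool (change −1.08, 47.4% of the wild-type signal), and so were its targets *Ptch1* (−1.17) and *Gli1* (−1.02). None of these genes passed the adjusted threshold (limma's adjusted p = 0.0656 for *Shh*, 0.141 for *Ptch1* and 0.0672 for *Gli1*). Genes of the pSHF itself were well above background, among them *Isl1* at 11.85 in mutants and 12.27 in wild type and *Tbx5* at 12.55 and 12.86, with 6 of 8 lower (median −0.19, none called, 3 under an unadjusted p of 0.05) and *Osr1* (−0.88), *Foxf1* (−0.80) and *Isl1* (−0.43) as the largest changes. Genes of neighbouring tissues were measured too, where 40.4% of all tested genes were lower. Neural crest genes were lower in 6 of 6 (median −0.29, none called, 2 under an unadjusted p of 0.05), led by *Foxd3* (−0.59), *Tfap2a* (−0.55) and *Sox10* (−0.43). Foregut genes were lower in 6 of 6 (median −0.16, none called, 1 under an unadjusted p of 0.05), led by *Nkx2-1* (−0.88), *Foxa2* (−0.25) and *Cdh1* (−0.20). Liver bud genes were higher in 5 of 5 (median 0.91), with *Alb* (1.22) and *Ttr* (0.91) called and *Apoa1* at 0.92. Of all genes, 0.389% were called higher. At an unadjusted p under 0.05 (limma) there were 4 of the 5, against 7.95% of all probes.

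**Figure D5:**
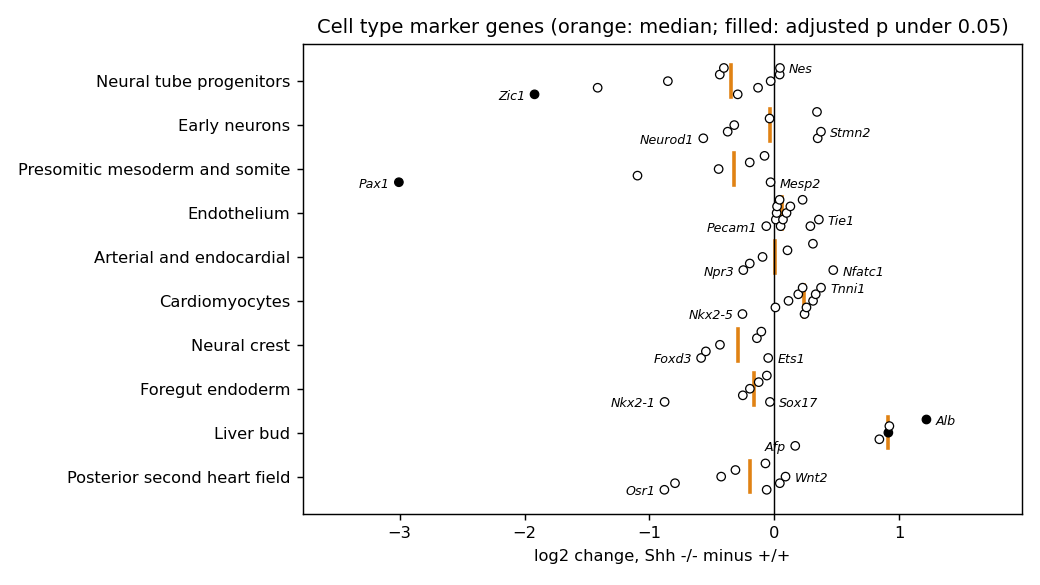
Log2 change (*Shh* -/- minus +/+, horizontal axis) of the tested marker genes of 10 cell types or tissues, 1 circle per gene, filled where the adjusted p was under 0.05, with the median of each list in orange. *Zic1*, *Pax1*, *Alb* and *Ttr* are filled; the cardiomyocyte list sits mostly above 0 and the neural tube progenitor list mostly under 0.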

How the data were processed

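The authors' deposited scan files hold spot signals and local backgrounds as intensity, read by Agilent Feature Extraction 10.5.1.1, and a further deposited table holds their normalized log2 values. Each array has 43379 spots for 41174 probes, and 60.0% to 70.6% of the probes were well above background. Median signals were 86.4 to 145.3 and median backgrounds 21 to 25 intensity units, and no spot was saturated. The number of arrays limits the precision. Per the file headers the probe coordinates are mm9.

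Outlier spots, 155 to 206 on an array, were dropped. Signals were corrected by normexp with the 153 negative control spots (offset 50), normalized by VSN, written anew here (7 iterations over 5 strata, keeping a share of 0.9) and given as log2. A probe was tested if named, well above background on all arrays of either genotype, and with 2 or more values per group. Genotypes, taken from the sample titles, were compared with limma 3.58.1 in R 4.3.3 (package data.table, version 1.17.8), with Benjamini-Hochberg adjustment. The labels enter genotype under strain and strain under genotype, and were read by what they say. The methods' SAM test was not run, and limma took its place. The code was tested on simulated data. Plots used matplotlib 3.10.9 (Python 3.11.15).

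The members, gene lists and tests were chosen with earlier results of these data known. Named were all members, pathway genes past the threshold and the 3 with the smallest unadjusted p in each direction, the 3 largest changes of each marker list, the 5 likest genes of each set, and *Shh*, *Ptch1* and *Gli1*. Other genes were chosen after their values were seen. A gene was read by its brightest probe. Marker lists covered neural tube progenitors, early neurons, presomitic mesoderm and somite, endothelium, arterial and endocardial cells, cardiomyocytes, neural crest, foregut, liver bud and pSHF. Promoter windows are from RefSeq (GRCm38.p6), where 8 of the 10 members matched; *Hes1* and *Hey1* did not.

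The labels tie arrays of the same number to the same slide. The correlation of deviations from the genotype means was 0.19, 0.24 and 0.03 for same-slide pairs and −0.22 to 0.19 for the others. Alternatives were other scalings and background corrections, the authors' values, dim probes kept, outlier spots kept, slide as a fixed or random block, array weights, a variance trend, a stricter threshold, the mean over probes, and leaving out each array. The authors' values set to the same median per array were added after seeing the data, since their array medians ran from 5.50 to 9.93. The 5.50 was that of mutant pool 2, and all other arrays had medians of 8.57 or more.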

Additional observations from a re-analysis of the deposited data

How the results depend on the processing

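The number of arrays and the dim signals of *Hes7*, *Lfng*, *Rfng* and the second *Jag1* probe limit what these data resolve. *Hes5*, *Dll3*, *Dll1*, *Jag1* and both *Hes6* probes were lower in the mutants under all 19 alternatives. The median of the neural members was −1.26 in the authors' values, which are not centred and move the median of all probes to −0.54, and −0.70 to −0.54 with 1 array left out. The median of the vascular/cardiac members was −0.38 in the authors' values, −0.0101 with array weights and −0.10 without wild-type pool 4, and −0.10 to 0.22 with 1 array left out. Members past the adjusted threshold numbered 3 with array weights (*Hes5*, *Dll3* and *Jag1*), 0 to 1 with 1 array left out (1, *Hes5*, without wild-type pool 1) and 0 under every other setting. Of the other pathway genes, 2 were called with array weights (*Lfng* and *Nrarp*) and 0 with any 1 array left out. Array weights called 548 probes over the whole array (2.37%), against 128 (0.553%) in the main fit. Leaving out wild-type pool 1 called 14 (0.0606%), and leaving out mutant pool 3 called 12 (0.0519%).

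With the replicate number as a block (slide as a fixed term, which leaves mutant pool 2 out of the contrast), 0 members and 0 other pathway genes were called, the neural median was −0.54 and the vascular/cardiac median 0.15, and 11 probes were called over the array. Single members turned sign in few settings: *Hey1* to −0.38 (authors' values), −0.0101 (array weights) and −0.10 (without wild-type pool 4), *Hey2* to −0.0721 (authors' values), *Hes1* to 0.0036 (without wild-type pool 4, in a range of −0.17 to 0.0036 with 1 array left out), and the *Notch1* probes to −0.0076 and −0.00016 (local background) and −0.56 and −0.51 (authors' values). With each of the authors' arrays set to the same median, a setting chosen after seeing the data, *Hey1* was at 0.23, *Hey2* at 0.54 and the *Notch1* probes at 0.05 and 0.09, so the sign changes in the authors' values came with their uncentred arrays. The cause of the other sign changes was not tested.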
